A study of Rattus norvegicus with 9 samples.

Results

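tRNA-half fragments, which are cut from mature tRNAs near their middle, were taken here as the tags of 33 to 38 nt that the deposited files assigned to the Rfam tRNA family or to its selenocysteine tRNA family. A tag is 1 distinct read sequence with its read count. By this rule 37330 of 485728 distinct tags were members, and they held 24526923 of 67939794 assigned reads, or 36.1%. The small RNA came from exosomes, the small vesicles that cells release, of primary macrophages washed out of the peritoneum of untreated rat and kept in medium with fetal bovine serum. Cells of the Control group were given 0.1% DMSO over 24 h. The LPS group was exposed for 6 h to 100 ng/ml of lipopolysaccharide, which came from a stock in DMSO. In the LPS+AS-IV group, astragaloside IV (AS-IV), a plant saponin that was also dissolved in DMSO, was present at 150 µM for 24 h before LPS. Each group had 3 libraries. The labels do not tell whether these are separate animals or cultures, so that p-values cover the spread among these samples, which may be technical.

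When a cell is stressed or activated, ribonucleases, among them angiogenin, can cut a mature tRNA in its anticodon loop. The 5′ piece begins at the first base of the tRNA and ends in the loop, and the 3′ piece runs from the loop to the CCA tail. 5′ fragments of several tRNAs, tRNA-Gly and tRNA-Val among them, are abundant in mammalian serum and in extracellular vesicles. Both the anticodon loop and base 26, before the anticodon stem, often carry modified bases that a reverse transcriptase can misread or stop at.

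The mammalian 5′ fragments on which the results turn are shown first, from the deposited tags. Capitals mark bases of the anticodon loop that the tag kept. Numbers in the names are lengths in nt. The Val-TAC tags are set under each other because their 3′ ends are compared between the groups below. The Val-CAC and Val tags differ in the first anticodon base, and the tags named piRNA show fragments of the same kind that the files gave to another class.
Val-TAC 33: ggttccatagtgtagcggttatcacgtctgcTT
Val-TAC 34: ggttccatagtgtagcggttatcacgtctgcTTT
Val-TAC G26A 33: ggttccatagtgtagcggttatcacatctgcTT
Val-CAC 34: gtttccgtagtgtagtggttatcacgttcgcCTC
Val 35: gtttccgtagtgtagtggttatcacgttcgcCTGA
Val 36: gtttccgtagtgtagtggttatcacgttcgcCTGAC
Val 33 piRNA: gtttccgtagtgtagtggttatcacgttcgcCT
Val 34 piRNA: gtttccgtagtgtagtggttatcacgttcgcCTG
Gly-GCC 33: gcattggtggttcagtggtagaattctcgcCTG

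Before any comparison, LPS 3 and LPS+AS-IV 3 stood apart from the other 7 libraries. Only in these 2 did 5′ fragments matched to a mammalian tRNA make up much of the tRNA fragment reads. Tags were matched to mammalian tRNAs by textbook first bases and anticodon-loop bases, with 34 such starts for 29 tRNA names. Tags with a match held 82.6% of tRNA fragment reads in LPS 3 and 49.3% in LPS+AS-IV 3, but 0.443% to 1.05% in the 7 others. Most tRNA fragment reads of those 7 libraries therefore matched no start of the table. These tags are called unmatched, numbered by abundance, and their sequences are not shown. Over the 200 most abundant start groups, profiles correlated at 0.854 to 0.951 between pairs of the 7 libraries. LPS 3 correlated with each of the 7 at 0.426 to 0.496, and LPS+AS-IV 3 at -0.420 to -0.316. Between LPS 3 and LPS+AS-IV 3 the correlation was 0.277, so that these 2 were not alike in profile. The groups were ranked on these same libraries, so the correlations are a description.

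The balance of bacterial and eukaryotic rRNA also set these 2 libraries apart. Reads of bacterial rRNA families were 1.10 to 2.73 times those of eukaryotic rRNA families in the 7 libraries, 0.367 times in LPS 3 and 0.507 times in LPS+AS-IV 3. The 2 low ratios came about differently. Bacterial rRNA held 13.5% to 32.0% of assigned reads in the 7 libraries, 4.92% in LPS 3 and 13.6% in LPS+AS-IV 3. Eukaryotic rRNA held 6.68% to 15.9% in the 7 libraries, 13.4% in LPS 3 and 26.9% in LPS+AS-IV 3. Transfer-messenger RNA, a bacterial RNA, held 0.409% to 1.08% of assigned reads in the 7 libraries, 0.608% in LPS 3 and 1.91% in LPS+AS-IV 3. LPS 3 lay inside that range and LPS+AS-IV 3 above it, so this class did not follow the same split. The organism of the unmatched fragments was not tested, and neither was the part of these classes in the results below. Rat fragments and bovine fragments from the serum cannot be told apart by these short starts.

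tRNA fragments took very different shares of the libraries of 1 group. Their shares of assigned reads were 58.4%, 42.0% and 32.3% (Control 1 to 3), 56.7%, 26.7% and 9.64% (LPS 1 to 3) and 47.1%, 39.0% and 3.85% (LPS+AS-IV 1 to 3). LPS+AS-IV 3 and LPS 3 were lowest, and the groups overlapped. With the tags of other classes that begin as a mammalian tRNA added, an alternative chosen after seeing the data, LPS 3 stood at 43.3%, above Control 3 with 33.4%, LPS 2 with 28.1% and LPS+AS-IV 2 with 41.0%, and LPS+AS-IV 3 was lowest with 10.5%. The mean difference then went from -13.2 to -2.32 percentage points for LPS against Control, from -1.04 to -9.13 between LPS+AS-IV and LPS, and from -14.2 to -11.4 between LPS+AS-IV and Control. Assigned reads ranged from 3484099 to 9527483 per library, so that the 95% Wilson interval of such a share reached at most 0.0465 percentage points to either side. Intervals cover counting error only, since PCR copies without molecular identifiers are not independent molecules. The mean share was 44.2% ± 13.2 for Control, 31.0% ± 23.8 for LPS and 30.0% ± 23.0 for LPS+AS-IV (SD, n = 3). An exact two-sided permutation test of the difference gave p = 0.4 for LPS against Control, p = 1 between the LPS+AS-IV and LPS groups, and p = 0.5 between the LPS+AS-IV and Control groups. With 3 libraries against 3 this exact test can give no p under 0.1, and each of the values was 1 after Benjamini-Hochberg adjustment over the 12 comparisons of single values. Without LPS 3 and LPS+AS-IV 3 the difference from Control was -2.5 percentage points for LPS and -1.16 for LPS+AS-IV. Members made up 85.6% to 93.8% of tRNA reads of any length in the 7 libraries, 74.5% in LPS 3 and 37.6% in LPS+AS-IV 3.

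A few tags held most of the reads. Of all members, 110 tags were present in each of the 9 libraries and held 91.5% of the reads, while 27520 tags occurred in a single library and held 1.22%. Tags that share their first 15 bases were summed into 11035 start groups, of which 99 were present in every library. The 10 groups with the highest mean share held 90.2% to 93.9% of tRNA fragment reads in the 7 libraries, 83.0% in LPS 3 and 51.1% in LPS+AS-IV 3. Of these 10 groups, 8 matched no start of the table. The others were 5′ fragments of tRNA-Val-TAC and of tRNA-Val-AAC/CAC, which carry valine.

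The group unmatched 1, led by a tag of 35 nt, came first. Its shares of tRNA fragment reads were 31.9%, 46.9% and 36.5% for the Control libraries, 43.6%, 52.7% and 0.354% for the LPS libraries and 60.4%, 48.6% and 0.705% for those with AS-IV. The shares of unmatched 2, led by a tag of 34 nt, were 39.8%, 32.5% and 29.1% (Control 1 to 3), 32.3%, 19.6% and 0.142% (LPS 1 to 3) and 15.8%, 25.6% and 0.308% (LPS+AS-IV 1 to 3). These groups were the leading pair in each of the 7 libraries and stayed under 1% in LPS 3 and LPS+AS-IV 3. Unmatched 3 to 8 each averaged 0.707% to 4.75% over the 9 libraries. None of the 8 unmatched groups had a first 15 bases in common with a tag given to a rat miRNA or piRNA. For the share of unmatched 1, exact two-sided permutation tests gave p = 0.9, p = 0.7 and p = 1 in the order above, each 1 after adjustment. The mean difference between LPS and Control was -6.21 percentage points with all libraries and 9.71 without LPS 3 and LPS+AS-IV 3.

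**Figure D1:**
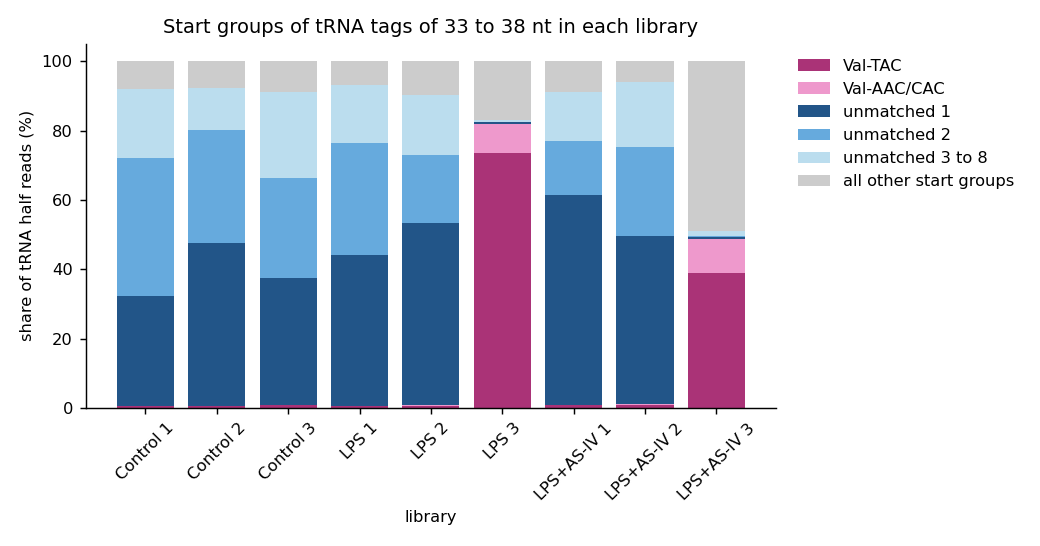
Share of tRNA fragment reads (y axis, percent) held by the leading start groups in each library (x axis), as stacked bars. Unmatched 1 and 2 together hold 65.5% to 79.4% of the 7 similar libraries, and the Val-TAC group leads LPS 3 with 73.6% and LPS+AS-IV 3 with 39.0%.

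tRNA-Val-TAC, which reads a GTA codon for valine, gave the leading mammalian 5′ fragment among the tags given to tRNA. The shares of its start group were 0.400%, 0.580% and 0.848% for the Control libraries, 0.510%, 0.644% and 73.6% for the LPS libraries and 0.876%, 0.921% and 39.0% for those with AS-IV. LPS 3 and LPS+AS-IV 3 were far above the other 7. In reads-per-million of assigned reads (RPM), its members stood at 2301, 2408 and 2727 (Control 1 to 3), 2861, 1720.1 and 70229 (LPS 1 to 3) and 4075, 3571 and 14885 (LPS+AS-IV 1 to 3). Each library of the LPS+AS-IV group was above each Control library, while the LPS group held the lowest and the highest value. The share of all start groups with such an order was not counted. edgeR's quasi-likelihood test, fitted over start groups of all RNA classes, gave this group a log2 fold change of 3.08 (SE 1.37, adjusted p = 0.678) for LPS against Control. For LPS+AS-IV against Control the edgeR value was 0.82 (SE 1.27, adjusted p = 1). Without LPS 3 and LPS+AS-IV 3 the edgeR values were -0.09 (SE 0.62, adjusted p = 1) and 0.79 (SE 0.61, adjusted p = 0.644). More vesicles and more of this RNA in each vesicle cannot be told apart.

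The 3′ end of the Val-TAC fragment differed between Control and both other groups. In Control most of its reads ended at base 34, the first anticodon base. In every LPS and LPS+AS-IV library most ended at base 33, just before the anticodon. Fragments that end before base 33 are shorter than 33 nt, so that they fall outside the rule and were not counted. The share ending at base 33 was 25.2%, 13.9% and 19.0% (Control 1 to 3), 64.8%, 64.6% and 84.4% (LPS 1 to 3) and 72.4%, 60.2% and 78.5% (LPS+AS-IV 1 to 3). Control did not overlap with either other group, and LPS and LPS+AS-IV overlapped. The share of all fragments whose 3′ ends separate the groups in this way was not counted. These shares rest on 5993 to 627588 reads per library, with Wilson intervals of at most 1.21 percentage points to either side. The mean was 19.3% ± 5.65 for Control, 71.3% ± 11.4 for LPS and 70.4% ± 9.28 for LPS+AS-IV (SD, n = 3). Exact two-sided permutation tests against Control gave p = 0.1 for LPS and p = 0.1 for LPS+AS-IV, the smallest possible, each with an adjusted p of 0.4. Between LPS+AS-IV and LPS the exact test gave p = 1. This comparison was chosen after the ends had been seen. Without LPS 3 and LPS+AS-IV 3 the difference from Control was 45.4 percentage points for LPS and 47.0 for LPS+AS-IV.

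The leading Val-TAC tags, shown above, carried these ends. Val-TAC 33 had read counts of 4017, 1707 and 4122 (Control 1 to 3), 16929, 3709 and 509338 (LPS 1 to 3) and 26920, 19050 and 78115 (LPS+AS-IV 1 to 3). Val-TAC 34 had read counts of 11908, 10854 and 17505 for the Control libraries, 8990, 2014 and 92717 for the LPS libraries and 10170, 12481 and 20272 for those with AS-IV. In RPM, Val-TAC 33 stood at 313 to 556 in Control and at 1065 to 56997 in the 6 other libraries, without overlap. The share of all tags without such overlap was not counted. Val-TAC 34 stood at 1649 to 2131 RPM in Control, within the range of each other group. In the edgeR fit over single tags Val-TAC 33 had a log2 fold change of 5.03 (SE 1.88, adjusted p = 0.529) for LPS and 2.61 (SE 1.69, adjusted p = 0.733) for LPS+AS-IV, both against Control. The first had an unadjusted edgeR p of 0.0127, one of the 3 smallest among tRNA fragment tags. Without LPS 3 and LPS+AS-IV 3 these edgeR values were 1.57 (SE 0.78, adjusted p = 0.498) and 2.39 (SE 0.79, adjusted p = 0.513). Val-TAC 34 had edgeR values of 0.77 (SE 1.62, adjusted p = 1) and -0.67 (SE 1.62, adjusted p = 1). Without those 2 libraries its edgeR values were -1.37 (SE 0.81, adjusted p = 0.498) and -0.55 (SE 0.79, adjusted p = 1), so that the first turned.

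Mean tag length was used to look for the same order across start groups. Val-TAC, whose shift had been seen before and prompted this look, is itself among those counted below. Of all start groups of 33 to 38 nt with at least 100 reads in each library, whatever their class, 133 could be compared, and 29 of them were tRNA fragments. Mean length was shorter in every LPS library than in every Control library in 5.26% of the 133 and in 3 of the 29. It was longer in 3.01% of the 133 and in 1 of the 29, the group unmatched 10. LPS+AS-IV was shorter than Control in 6.77% and in 4 of the 29, and longer in 3.76% and 0 of the 29. LPS+AS-IV was shorter than LPS in 3.76% and in 1 of the 29, unmatched 4, and longer in 0.752% and 0 of the 29. Val-TAC, unmatched 1 and unmatched 4 were the 3 shorter in LPS than in Control, and LPS+AS-IV added unmatched 38 to them. In unmatched 1 the mean length was 34.7 nt ± 0.0189 for Control, 34.6 nt ± 0.0929 for LPS and 34.3 nt ± 0.251 for LPS+AS-IV (SD, n = 3). In unmatched 4 it was 33.7 nt ± 0.0287, 33.6 nt ± 0.0568 and 33.5 nt ± 0.12 in the same order. The Val-AAC/CAC fragment had 34.2 nt ± 0.107 for Control and 34.1 nt ± 0.137 for LPS, and these overlapped. Unmatched 10 and 38 were named after their values were seen.

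**Figure D2:**
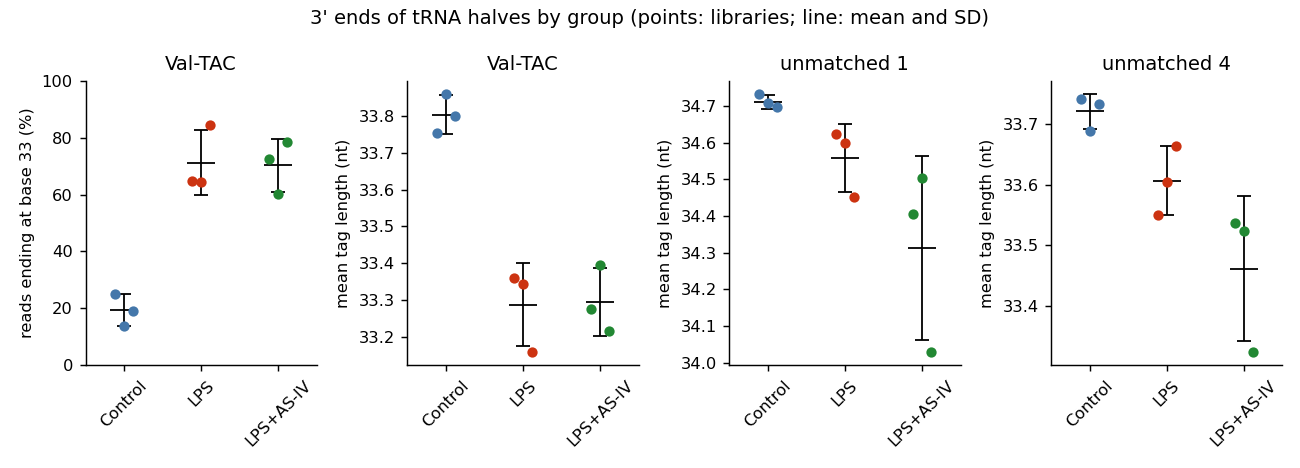
Share of Val-TAC fragment reads ending at base 33 (first panel, percent) and mean tag length (other panels, nt) by group. Points are libraries, and the lines show the mean and SD of 3 libraries. In the first panel the Control points lie at 25.2% or lower and all others at 60.2% or higher.

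Start sites of the leading groups were almost fixed. Tags of any length given to tRNA that held bases 9 to 30 of a group's leading tag were aligned on these bases. Pooled over the libraries, 99.9% of such reads of Val-TAC began at the same base as the leading tag, and 99.8% of Val-AAC/CAC. In Val-AAC/CAC 88.5% also had the same first 8 bases as the leading tag. In unmatched 1, 2 and 4 the share was 99.9%, 99.8% and 99.9%. Unmatched 3 began there in 98.3% of reads and 1 base later in 1.56%. Unmatched 5 began there in 97.9% and earlier in 1.99%. The share of unmatched 8 was 99.9% when pooled and 88.1% in its lowest library. The 3′ ends varied more. In unmatched 1, tags of 34 nt held 38.1% and tags of 35 nt 58.0% of the reads. Pooled in the same way, unmatched 3 was split between 37 nt, with 57.5%, and 38 nt, with 37.2%, and unmatched 5 had 95.5% at 37 nt. LPS+AS-IV 3 differed, with 76.9% of its 735 reads of unmatched 3 at 34 nt and 92.2% of its 476 reads of unmatched 5 at 38 nt.

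Over all tRNA fragments, the 7 similar libraries peaked at 34 nt, with 42.8% to 51.8% of reads, followed by 35 nt, with 26.6% to 36.7%, and had a smaller peak at 37 nt, with 7.38% to 12.4%. LPS 3 and LPS+AS-IV 3 peaked at 33 nt, with 68.0% and 46.6%. Among tags given to tRNA, fragments with a mammalian match held 14.0% to 24.0% of their reads at 33 nt in Control and 57.3% to 76.8% in the 6 other libraries. In each library most of these reads were Val-TAC, as with 16618 of 18682 in Control 1. Val-AAC/CAC showed no such difference over all classes. Its reads ended at base 33 in 87.1%, 89.0% and 88.7% (Control 1 to 3), 83.8%, 90.5% and 81.2% (LPS 1 to 3) and 88.6%, 88.0% and 76.8% (LPS+AS-IV 1 to 3). The mean length of all tRNA fragment reads was 34.8 nt ± 0.0250 for Control, 34.4 nt ± 0.681 for LPS and 34.5 nt ± 0.277 for LPS+AS-IV (SD, n = 3). Each LPS+AS-IV library was below each Control library, with an exact two-sided permutation p = 0.1 and an adjusted p of 0.4. The exact test gave p = 0.6 for LPS against Control and p = 0.9 between LPS+AS-IV and LPS, both 1 after adjustment.

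**Figure D3:**
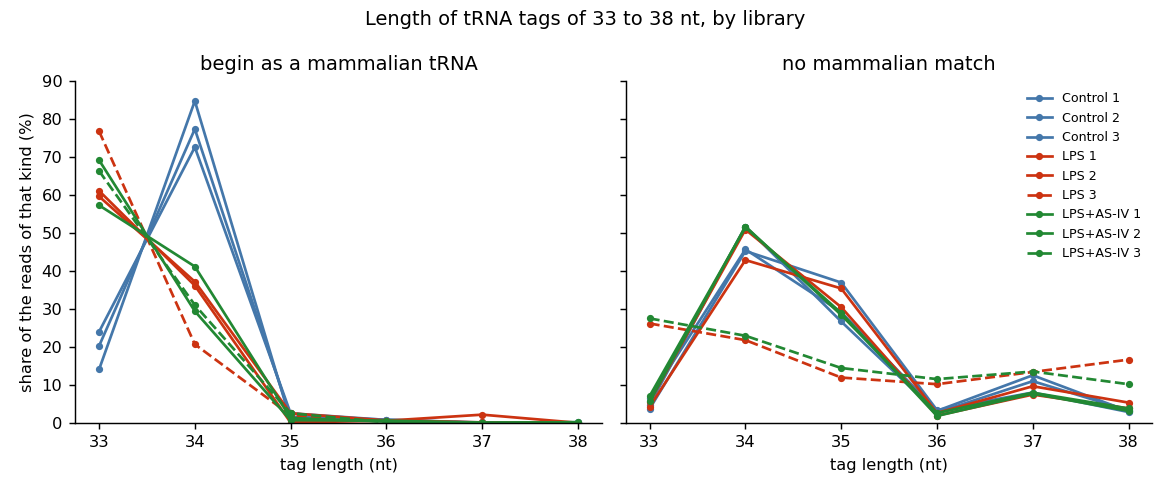
Share of reads (y axis, percent) at each tag length (x axis, nt) for tRNA fragments that matched the table of mammalian tRNA starts (left) and those that did not (right), 1 line per library and dashed lines for LPS 3 and LPS+AS-IV 3. On the left, where most reads are Val-TAC, the Control lines peak at 34 nt with 72.6% to 84.8%, and the 6 other lines peak at 33 nt. On the right the 7 solid lines peak at 34 nt with 42.9% to 51.7%.

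tRNA-Val-AAC/CAC, which reads the other valine codons, gave the second mammalian 5′ fragment among the tags given to tRNA. The shares of its start group were 0.0465%, 0.0571% and 0.0671% (Control 1 to 3), 0.0513%, 0.0374% and 8.44% (LPS 1 to 3) and 0.0597%, 0.116% and 9.67% (LPS+AS-IV 1 to 3). LPS 3 and LPS+AS-IV 3 again stood far above the rest. The edgeR log2 fold change for LPS against Control was 3.27 (SE 1.49, adjusted p = 0.678), and -0.20 (SE 0.89, adjusted p = 1) without those 2 libraries. The leading tag, Val-CAC 34, had read counts of 1146, 1024 and 823 for the Control libraries, 1469, 306 and 47580 for the LPS libraries and 1671, 2358 and 17604 for those with AS-IV. Its last base is C, with which the CAC anticodon begins.

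The first anticodon base of this fragment was read as C or G and rarely as A. Among reads of any class that went past the 33 shared bases, base 34 was C in 69.0%, G in 30.6% and A in 0.178%, with at most 5.20% A in 1 library, LPS 1. C led in each of the 9 libraries, and the share of G ran from 3.20% in LPS 2 to 47.4% in Control 3. Reads with 3 bases after base 33 carried GAC in 5536 of 7083 and CAC in 1358. LPS 3 alone gave 4124 of the GAC reads, with 527 CAC. CAC led by 63 to 10 in Control 2, 151 to 142 in LPS 1 and 38 to 6 in LPS 2, and GAC led in the 6 other libraries. RefSeq annotates 43 rat genes with the AAC anticodon, 9 with CAC and 0 with GAC. As background, the A that begins an AAC or AGC anticodon is converted to inosine in mature tRNA, and inosine is read as G in sequencing. Whether the G here is inosine was not tested. The tRNA-Ala fragments, 2920 reads in all, had G as the first anticodon base in 97.3%, T in 2.67% and A in 1 read. This is a pooled value, with 1827 of the reads from LPS 3, 621 from LPS+AS-IV 1 and 0 from LPS+AS-IV 3. T was read 78 times, which equals the whole count of LPS 2. For alanine RefSeq annotates 92 genes with AGC, 21 with TGC, 6 with CGC and 6 with GGC.

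Pooled over the libraries, single-base differences from Val-TAC 33 were concentrated at base 26, counted from 1 at the 5′ end of the tag. In the names of such changes the base of Val-TAC 33 comes first. G26A, shown above, had 18773 reads, 2.83% of the reads of Val-TAC 33, and the next, C31T, had 1710. Position 26 held 61.4% of the 32328 reads of 53 such tags. These are pooled values, and LPS 3 alone gave 16821 of the G26A reads. In LPS+AS-IV 3 base 26 did not lead, as G26A had 26 reads there, T32C 468 and T3C 358. As a share of both tags, G26A made up 3.18%, 5.79% and 2.81% (Control 1 to 3), 1.47%, 3.99% and 3.20% (LPS 1 to 3) and 2.70%, 2.14% and 0.0333% (LPS+AS-IV 1 to 3). LPS+AS-IV 3 was lowest, while LPS 3 lay among the 7 others. Guanine 26 is dimethylated in many tRNAs, and whether G26A is a misread modified base or a gene variant was not tested.

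The tRNA-Gly-GCC fragment, well known from serum and sperm, was the only 5′ fragment placed on a RefSeq tRNA gene. Of 766 annotated rat tRNA genes, 3 lay whole inside the gene-start windows of the assembly GRCr8 that were searched. Gly-GCC 33 matched chr10:54322840-54322872 on the minus strand, upstream of Hes7, a repressor of the segmentation clock. It begins at the first base of the tRNA gene Trnag-gcc2, shown with its anticodon, bases 33 to 35, in capitals, so that the fragment ends at base 33, the first anticodon base.
Trnag-gcc2: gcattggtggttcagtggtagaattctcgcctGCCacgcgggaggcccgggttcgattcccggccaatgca
Gly-GCC 33 had read counts of 98, 107 and 157 (Control 1 to 3), 228, 76 and 7028 (LPS 1 to 3) and 514, 504 and 2519 (LPS+AS-IV 1 to 3). The table of starts gives tRNA-Gly with the anticodons GCC and CCC 1 name, Gly-GCC/CCC. All members with this name stood at 19.0, 19.6 and 19.2 for the Control libraries, 27.9, 30.7 and 947 for the LPS libraries and 68.0, 56.2 and 376 for those with AS-IV in RPM. Each library of the 2 treated groups lay above each Control library, and LPS 2 rested on 107 reads. How many of all start groups separate in this way was not counted, so this order does not single out the Gly fragment. The edgeR log2 fold change of the Gly-GCC/CCC start group against Control was 3.84 (SE 1.60, adjusted p = 0.678) for LPS and 2.16 (SE 1.49, adjusted p = 0.972) for LPS+AS-IV. Without LPS 3 and LPS+AS-IV 3 these edgeR values were 0.48 (SE 1.25, adjusted p = 1) and 1.84 (SE 1.25, adjusted p = 0.613).

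3′ fragments were present as well as 5′ fragments. The 7 tags that matched Trnag-gcc2 held 12565 reads, of which 12564 began at its 5′ end. The 4 tags that matched Trnat-agu1, a threonine tRNA gene, held 1138 reads, and none began at its 5′ end. The leading one is shown as an example of a 3′ fragment, with the T-loop motif GTTCGA in capitals.
Thr 37: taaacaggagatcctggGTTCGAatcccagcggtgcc
It matched chr1:97019968-97020004 on the minus strand of GRCr8, ending 1 base before the annotated end of the gene, and had read counts of 19, 0 and 27 (Control 1 to 3), 72, 1 and 149 (LPS 1 to 3) and 89, 90 and 142 (LPS+AS-IV 1 to 3). GTTCGA or GTTCAA, searched on the strand read, was in 29.2% of distinct tRNA fragment tags and in 4.48% of 149115 tags of the same length in other classes. By reads it was in 1.53% to 3.07% of tRNA fragments in the 7 libraries, 5.85% in LPS 3 and 15.3% in LPS+AS-IV 3. CCA ended 9.35% of the tRNA fragment tags and 1.86% of the others.

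No tRNA fragment passed the edgeR test in any comparison. Of 11035 tRNA fragment start groups, 942 passed the filter on low counts, among 13800 groups of all classes. With an adjusted edgeR p under 0.05 there were 0 of them in each comparison, against 0% of all groups. At an unadjusted edgeR p under 0.05, 10 were higher and 29 lower with LPS than in Control, where 4.95% of all groups passed. Between LPS+AS-IV and LPS, 11 were higher and 33 lower, against 6.96% of all groups. Between LPS+AS-IV and Control, 4 were higher and 42 lower, against 6.47%. Tested tRNA fragment groups had a median log2 fold change of -0.46, -0.28 and -0.75 in this order, and -0.25, -0.05 and -0.37 over all groups tested. These unadjusted counts and medians changed when 1 library was left out. The filter on low counts was rerun in those fits, so that 1296 to 1477 tRNA fragment groups were tested instead of 942. A change from the left-out library and one from the larger set cannot be told apart here. Without LPS 1 the counts between LPS+AS-IV and LPS turned to 36 higher and 14 lower, without LPS+AS-IV 3 they were 17 higher and 12 lower, and without LPS 2 those for LPS against Control were 8 higher and 7 lower. Leaving out 1 library at a time, the median of tRNA fragment groups ran from -3.13 to 0.08 for LPS against Control, from -0.79 to 1.35 between LPS+AS-IV and LPS and from -1.63 to -0.04 between LPS+AS-IV and Control. The first turned without Control 1, and the second without LPS 1 or LPS+AS-IV 3. With the replicate block the medians were -2.24, -0.06 and -2.50. The common dispersion had a square root of 2.18.

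Single tags gave the same count. Of 17713 tags tested, 1784 of the 37330 tRNA fragments were among them, and 0 passed edgeR's adjusted threshold in each comparison, against 0% of all tags. Unadjusted, 10 were higher and 74 lower for LPS against Control, with 6.32% of all tags. The counts were 21 and 48 between LPS+AS-IV and LPS, with 8.73%, and 12 and 84 between LPS+AS-IV and Control, with 8.7%. Here too the direction changed when 1 library was left out, in fits that tested 2411 to 2787 tRNA fragment tags. Between LPS+AS-IV and LPS there were 50 higher and 20 lower without LPS 1, 53 higher and 10 lower without LPS+AS-IV 3 and 16 higher and 16 lower without Control 2. There were 16 higher and 13 lower for LPS against Control without LPS 2, and 19 higher and 8 lower for LPS+AS-IV against Control without LPS+AS-IV 3. DESeq2's Wald test called 9, 18 and 21 tRNA fragment groups in the order in which the start groups were given, where it called 2.03%, 3.77% and 3.28% of all groups. It called 31, 29 and 38 tRNA fragment tags, where it called 2.39%, 3.86% and 3.6% of all tags.

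The start groups with the smallest unadjusted p were low in reads or absent from most libraries. For LPS against Control these were unmatched 32, unmatched 2473 and unmatched 1994. Unmatched 2473 had 14, 16 and 15 reads in the Control libraries, unmatched 1994 had 18, 19 and 27, and both had 0 in the 6 others. Unmatched 32 came first between LPS+AS-IV and LPS, with 71, 64 and 0 reads in the Control libraries, 0 in each LPS library and 0, 123 and 2291 in the LPS+AS-IV libraries. Unmatched 499 and unmatched 528 followed it, with 0 reads in every LPS+AS-IV library. Unmatched 499 had 288, 77 and 321 reads in the Control libraries and 166, 0 and 0 in the LPS libraries, and unmatched 528 had 168, 96 and 26, and 124, 107 and 0. The last 2 and unmatched 2473 had the smallest p between LPS+AS-IV and Control. A count of 0 allows up to 3 reads. The smallest adjusted edgeR p was 0.678, 0.483 and 0.603 in the order of comparisons above.

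Most reads of mammalian 5′ fragments fell outside the rule because the files gave them to rat piRNAs, small RNAs known from the germ line. Of the reads of 33 to 38 nt with a mammalian match, 77.5% to 88.1% were given to a piRNA in each library. The class changed with the last bases of the tag. The Val 33 and Val 34 tags shown above as piRNA continue into the tags Val 35 and Val 36, which were given to tRNA, as was Val-CAC 34. These Val tags are an example and do not make up most of the reads given to piRNA. The Val 33 piRNA tag had read counts of 15397, 12302 and 15100 (Control 1 to 3), 18372, 4100 and 326739 (LPS 1 to 3) and 25106, 31618 and 74640 (LPS+AS-IV 1 to 3). With all classes, 81.9% of Val-AAC/CAC reads ended at base 33, against 11.3% within the rule.

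**Figure D4:**
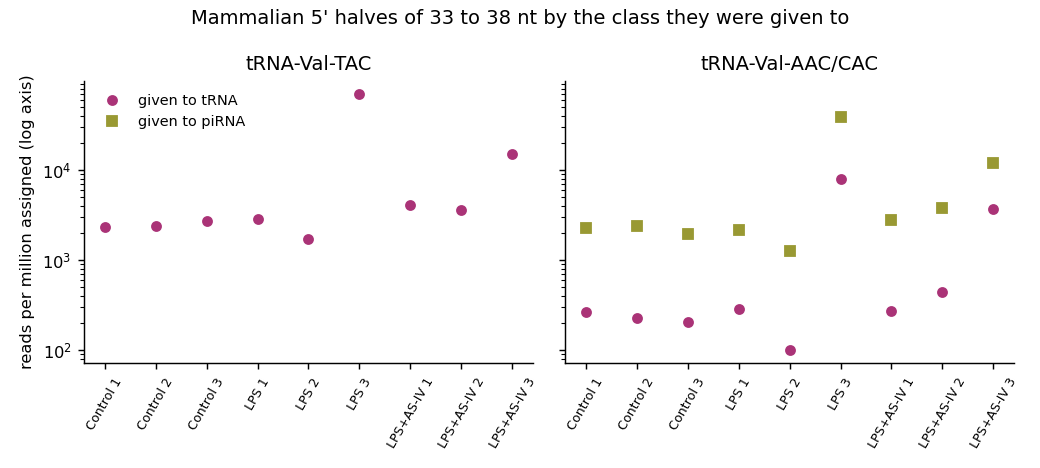
RPM (y axis, log scale) of Val-TAC and Val-AAC/CAC fragments of 33 to 38 nt in each library (x axis), by the class the files gave them to. Val-TAC is given to tRNA and Val-AAC/CAC to both, and LPS 3 is highest in each panel, with 70229 for Val-TAC and 39057 for Val-AAC/CAC given to piRNA.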

How the data were processed

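The deposited files of single libraries held whole-number read counts of each distinct tag of 15 to 45 nt, each with 1 class. A deposited score of the match stands beside each tag, per the file headers, and chose nothing here. The submitters' processing notes name Bowtie2 and the build Rnor_6.0 without a role. How classes were searched is not stated in the labels or headers. Reads were summed per start group (class, length window and first 15 bases) and tested with edgeR 4.0.16 in R 4.3.3 (quasi-likelihood test, TMM factors, filterByExpr, 1 fit over 9 libraries, Benjamini-Hochberg adjusted p under 0.05). The SE is the log2 fold change divided by the square root of F. DESeq2 1.42.0 was an alternative, as were other windows, filters, blocks and left-out libraries. Single values were compared by exact permutation tests.

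The text names the 10 start groups and tags with the highest mean share, any group with over 10% of a library's tRNA fragment reads and, as none passed, those 3 whose unadjusted p was smallest. The Gly, Ala and Thr fragments were added after their values were seen. Fragments of other tRNAs in the table of starts are not reported here one by one. Mammalian names rest on textbook knowledge of up to 7 first bases and of loop bases. Window and gene sequences are from RefSeq (GRCr8). The members and lists were chosen with earlier results of these data known. The labels number the libraries of each group. Deviations from group means of same-numbered libraries, over 942 start groups, correlated at 0.19, 0.11, 0.13 for LPS and Control, at 0.23, 0.12, 0.59 for LPS+AS-IV and LPS and at 0.12, -0.10, 0.07 for LPS+AS-IV and Control. The 0.59 is between LPS+AS-IV 3 and LPS 3. Differently numbered pairs ran from -0.45 (LPS+AS-IV 3 with LPS 1) to 0.35 (LPS+AS-IV 2 with LPS 1). Whether the numbers pair the libraries is therefore unclear.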

Additional observations from a re-analysis of the deposited data

Results flagged for a closer look

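Tags of 33 to 38 nt that begin as a mammalian tRNA but were given to another class, mostly piRNA, enter no comparison of the tRNA fragments above. They held 1.05%, 1.60% and 1.15% of assigned reads in Control 1, 2 and 3, and 1.43% and 1.38% in LPS 1 and LPS 2. They were above the highest Control value in LPS 3, with 33.6%, and in LPS+AS-IV 1, 2 and 3, with 3.45%, 2.01% and 6.69%. The difference between groups was not tested.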

How the results depend on the processing

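The count of changed tRNA fragments was 0 in edgeR under every alternative run, the fits with the replicate block and those without 1 library included, so that the block changed no call. DESeq2's Wald test called 9, 18 and 21 start groups and 31, 29 and 38 tags, in the order of comparisons used above, and the cause was not tested. With DESeq2 size factors the median log2 fold change of all start groups went from -0.25 to -0.05 for LPS and from -0.37 to -0.15 for LPS+AS-IV, both against Control. Permuting within the replicate block moves a p and not a difference. The exact p for LPS against Control went from 0.4 to 0.25 for the tRNA fragment share (-13.2 points) and from 0.1 to 0.25 for the Val-TAC ends (51.9 points), and 0.25 is the smallest p that 3 blocks of 2 libraries allow.

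Without LPS 3 and LPS+AS-IV 3, chosen after seeing the data, 6 differences turned. Against Control, the share of unmatched 1 became 9.71 points in LPS and 16.1 in LPS+AS-IV, and mean length in LPS became 0.00434 nt. Between LPS+AS-IV and LPS, the tRNA fragment share became 1.34 points, mean length -0.128 nt and the Val-TAC ends 1.60 points. That difference in mean length was -0.213 nt at 30 to 40 nt and -0.0204 nt with each tag counted once.

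Leaving out 1 library at a time, the 3 differences in tRNA fragment share ran from -26.0 to -2.5, -11.7 to 12.03 and -22.8 to -1.16 points, those in the share of unmatched 1 from -16.4 to 9.71, -11.6 to 22.3 and -13.8 to 16.1 points, those in mean length from -0.629 to 0.00434, -0.288 to 0.346 and -0.377 to -0.124 nt, and those in the Val-TAC ends from 45.4 to 55.3, -4.95 to 5.65 and 47.0 to 56.1 points. These permutation tests cannot reach 0.05, so they say nothing of a threshold.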
